A study of Mus musculus with 15 samples.

Results

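The genes described here are the 7 accessory subunits of Polycomb repressive complex 2 (PRC2): Phf1, Mtf2, Phf19, Epop and Lcor, whose products define the PRC2.1 form of the complex, and Jarid2 and Aebp2, which define PRC2.2. They were taken by symbol, through the mouse gene annotation GENCODE M21, from a table of 46078 gene identifiers, and each symbol matched 1 row. Transcripts were measured by RNA sequencing in B16-F10 cells, a pigmented mouse melanoma line, in 15 libraries of 5 groups with 3 libraries each. The groups were cells given 2 µM DZNep, 2 µM GSK126 or the vehicle DMSO (the compound arm), and cells given an siRNA against Ezh2 (siEzh2) or a scrambled siRNA (scr, the siRNA arm). The labels do not say whether the arms were run together. DZNep blocks the hydrolase that clears S-adenosylhomocysteine and so acts on many methyltransferases, and GSK126 competes with the methyl donor in the catalytic site of EZH2. All groups are the same line, no other alteration is named, and the labels name neither exposure times nor siRNA sequences. The labels do not tie replicates to different cultures, and p-values therefore reflect only the spread of these libraries, which may be technical.

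PRC2 places the repressive methyl marks on histone H3 through a core of EZH2 or EZH1, EED, SUZ12 and RBBP4 or RBBP7. Accessory subunits bind SUZ12 in mutually exclusive sets and steer the core to chromatin. The Polycomb-like proteins PHF1, MTF2 and PHF19 bind unmethylated CpG-rich DNA and carry a Tudor domain that reads methylated histone H3. EPOP joins PRC2.1 and binds Elongin B and C, and a long product of the Lcor locus, PALI1, is an alternative partner in PRC2.1. JARID2 and AEBP2 form PRC2.2 and recognise the ubiquitin mark that Polycomb repressive complex 1 (PRC1) places on histone H2A.

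Libraries held between 33299524 and 64545747 counts, so 1 count was worth between 0.0155 and 0.03 CPM (counts scaled to a fixed library total). Mitochondrial transcripts took between 6.17% and 10.6% of counts. The 7 melanocytic markers summed to between 22000 and 22400 CPM with DZNep, between 21400 and 21800 with GSK126, between 25300 and 25600 with DMSO, between 24100 and 25500 with siEzh2 and between 18900 and 20000 with scr, all 7 being above 1 CPM in every group. The sums hide single markers that moved in opposite directions. With DZNep, Dct was at 4960 CPM, against 8770 with DMSO, and Tyrp1 at 10500 CPM, against 9050 with DMSO. The part of these markers in the results below was not tested. Blood, endothelial and keratinocyte marker lists each summed to under 1 CPM in every library, with Cd3e, Itgam, Cdh5, Krt5 and Krt14 at 0 counts. Fibroblast markers summed to between 11.9 and 18.1 CPM, and melanoma cells can express several of them. Ezh2 itself stood at 37.6, 39.9 and 41.3 CPM in the siEzh2 libraries, against 215, 227 and 215 CPM in scr, so each knockdown library matched its label. The numbers in the library names place GSK126 replicate 1 next to the siRNA arm. In bulk RNA, less RNA per cell and fewer cells of a kind cannot be told apart.

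All 7 genes were well measured, with between 167 counts (Epop, in 1 siEzh2 library) and 14966 counts (Aebp2, in 1 DMSO library), and all passed the low-count filter. Levels of different genes are compared as RPKM, here CPM per kilobase of merged exons. Aebp2 was the most abundant per length in every group, at 22.7 ± 0.400 RPKM with DZNep, 21.4 ± 0.0850 with GSK126, 23.6 ± 0.211 with DMSO, 21.1 ± 0.765 with siEzh2 and 21.7 ± 0.639 with scr (SD, n = 3 each). Jarid2 came next, between 9.16 RPKM with DZNep and 11.4 RPKM with siEzh2, followed by Mtf2, between 6.25 RPKM with siEzh2 and 8.21 RPKM with scr. Phf1 followed Mtf2 in every group. Its libraries overlapped those of Mtf2 with DZNep, at 6.46 ± 0.923 and 7.37 ± 0.495 RPKM, and did not overlap them in the other 4 groups.

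Phf19, Epop and Lcor filled the last 3 places at between 1.90 and 4.22 RPKM, and their order differed between groups. Phf19 was last with DZNep and GSK126 and led these 3 with siEzh2 and scr. Neighbours in this order overlapped for Lcor and Epop with DZNep and with GSK126, for Phf19 and Lcor with DMSO, and for Phf19 and Lcor with siEzh2. With the length of the longest transcript in place of merged exons, the first 4 places were unchanged in all 5 groups, and 25 of the 35 places were unchanged.

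**Figure D1:**
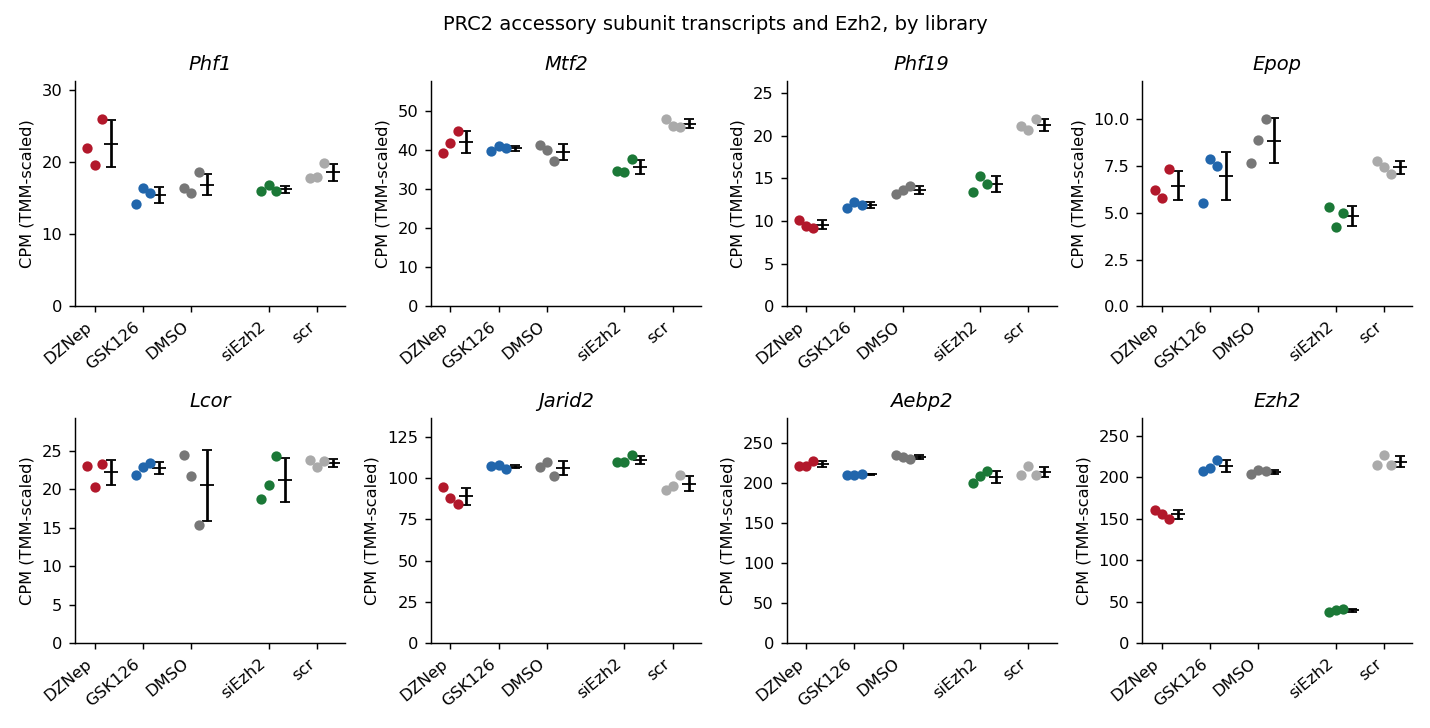
CPM on TMM-scaled library sizes of the 7 accessory subunits and Ezh2 in each library (dots; 3 per group), with the mean and SD beside them. Phf19 in scr (20.6 to 22.01 CPM) lies above all other groups, Epop in siEzh2 (4.23 to 5.29 CPM) lies below all other groups, and Phf1 with DZNep (19.6 to 25.98 CPM) lies above DMSO.

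Of the PRC2.1 genes, the 3 Polycomb-like paralogs were not all called in the same comparisons, and differences between paralogs were not tested. Phf1 was called higher with DZNep. Mtf2 and Phf19 were both called lower in siEzh2 relative to scr, but not relative to DMSO. Phf19 was also called lower with DZNep. Phf19, a Polycomb-like protein (ENSMUSG00000026873, chromosome 2, 34893757 to 34914026, GRCm38, minus strand), varied most among the 7 genes, 2.22-fold between its highest and lowest group mean. It stood at 10.2, 9.44 and 9.14 CPM with DZNep and at 11.5, 12.3 and 11.8 CPM with GSK126, against 13.2, 13.6 and 14.1 CPM with DMSO. In the siRNA arm it stood at 13.4, 15.3 and 14.3 CPM with siEzh2, against 21.1, 20.6 and 22.01 CPM with scr. Both compounds lay below DMSO in every library, and siEzh2 lay below scr in every library but overlapped DMSO.

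Phf19 fell 1.43-fold with DZNep (log2 −0.51 ± 0.07 SE, adjusted p = 2.44e-06) and 1.48-fold with siEzh2 relative to scr (−0.56 ± 0.07, adjusted p = 2.26e-06). With GSK126 it was at −0.20 ± 0.07 (adjusted p = 0.0601), which did not pass. All these adjusted p-values are from the quasi-likelihood test of edgeR. The siEzh2 result rests on its control: scr was 1.56-fold above DMSO (0.64 ± 0.07, adjusted p = 4.63e-07), and siEzh2 against DMSO was 0.07 with a 95% interval of −0.07 to 0.21 (adjusted p = 0.508). The arm, the transfection and the library numbering differ together between scr and DMSO and cannot be told apart.

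Mtf2, the Polycomb-like protein with the highest level per length here (ENSMUSG00000029267, chromosome 5, 108065674 to 108109004, plus strand), stood at 34.6, 34.5 and 37.6 CPM with siEzh2, against 48.0, 46.3 and 46.0 CPM with scr. The groups did not overlap, and the fall was 1.31-fold (−0.39 ± 0.06, adjusted p = 3.71e-05). In the compound arm Mtf2 stood at 39.2, 41.8 and 44.9 CPM with DZNep and 39.7, 41.0 and 40.6 CPM with GSK126, against 41.2, 39.95 and 37.2 CPM with DMSO. These libraries overlapped, and the 95% intervals were −0.03 to 0.21 for DZNep and −0.08 to 0.16 for GSK126 on the log2 scale. Here too scr lay above DMSO (0.25 ± 0.06, adjusted p = 0.00322), and siEzh2 against DMSO was −0.15 (95% interval −0.27 to −0.02, adjusted p = 0.102). Mtf2 shares 395 exon bases with Tmed5 on the other strand, so part of its reads is uncertain. Tmed5 itself was at −0.01 with siEzh2 (adjusted p = 0.903) and at 0.43 with DZNep (adjusted p = 3.36e-06).

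Phf1, the remaining Polycomb-like protein (ENSMUSG00000024193, chromosome 17, 26933052 to 26937908, plus strand), stood at 21.95, 19.6 and 25.98 CPM with DZNep and 14.2, 16.4 and 15.7 CPM with GSK126, against 16.4, 15.7 and 18.6 CPM with DMSO. DZNep libraries lay above all DMSO libraries, and those of GSK126 overlapped them. Phf1 rose 1.33-fold with DZNep (0.41 ± 0.09, adjusted p = 0.000474) and was at −0.13 ± 0.09 with GSK126 (adjusted p = 0.385). It stood at 15.9, 16.7 and 15.96 CPM with siEzh2, against 17.8, 17.97 and 19.9 CPM with scr, with no overlap but no call (−0.19 ± 0.09, adjusted p = 0.135). Of the 3486 merged exon bases of Phf1, 1370 lie over Cuta on the other strand, and strand use in counting is not given in the sources used here. Cuta had 125 CPM with DZNep and 118 CPM with DMSO (0.08 ± 0.11, adjusted p = 0.553), and its part in the Phf1 counts was not tested.

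**Figure D2:**
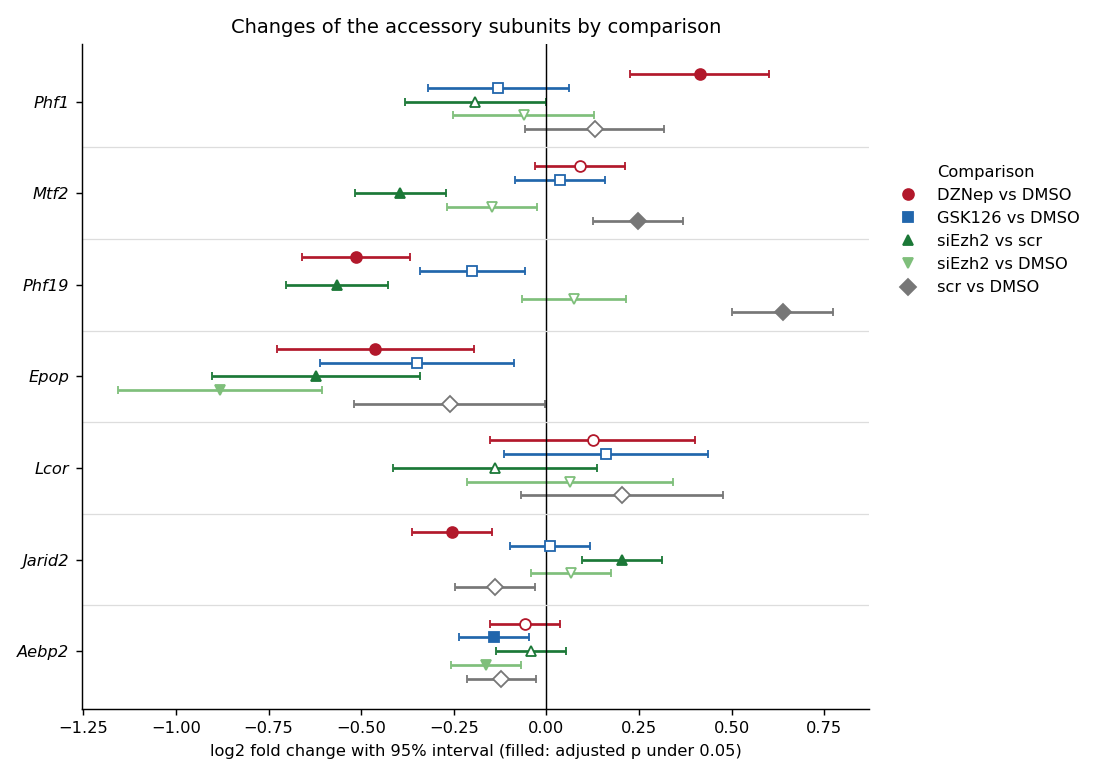
Log2 fold change with 95% interval of each accessory subunit in 5 comparisons (filled symbols: adjusted p under 0.05 in edgeR). Phf19 lies at −0.56 in siEzh2 relative to scr but at 0.07 relative to DMSO, whereas Epop lies below 0 in both (−0.62 and −0.88).

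The promoters of the Polycomb-like genes are shown because the 3 paralogs were not all called in the same comparisons. Any link between these sequences and the changes was not tested. Each is the 250 bases upstream of a RefSeq transcript start (GRCm38.p6), on the gene's strand, with capitals marking TTCCCGC or its reverse complement, the core letters of an E2F site. For Phf19 this is chr2:34913977-34914226 (minus), for Mtf2 chr5:108065424-108065673 (plus) and for Phf1 chr17:26932877-26933126 (plus).
Phf19: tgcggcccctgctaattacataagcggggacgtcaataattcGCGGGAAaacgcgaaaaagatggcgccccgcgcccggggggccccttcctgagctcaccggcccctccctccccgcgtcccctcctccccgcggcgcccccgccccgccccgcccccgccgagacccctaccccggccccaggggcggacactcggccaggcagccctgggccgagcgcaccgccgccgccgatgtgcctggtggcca
Mtf2: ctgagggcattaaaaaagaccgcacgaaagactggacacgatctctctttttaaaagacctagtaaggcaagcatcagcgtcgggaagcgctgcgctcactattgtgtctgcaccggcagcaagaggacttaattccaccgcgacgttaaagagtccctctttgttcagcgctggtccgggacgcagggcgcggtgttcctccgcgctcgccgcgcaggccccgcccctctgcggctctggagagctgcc
Phf1: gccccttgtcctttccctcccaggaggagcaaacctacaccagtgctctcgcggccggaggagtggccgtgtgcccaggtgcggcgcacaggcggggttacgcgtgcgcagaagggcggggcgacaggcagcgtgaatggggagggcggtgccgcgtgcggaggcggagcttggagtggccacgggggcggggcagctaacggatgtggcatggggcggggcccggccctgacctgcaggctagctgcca

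The Phf19 window holds 1 match to TTCCCGC, and the Mtf2 and Phf1 windows shown hold 0, as do a second Mtf2 window and those of Jarid2, Aebp2 and Lcor. Of all 32841 windows of this length in the RefSeq table, 3.82% hold it on either strand. TTCCCGC itself contains a CpG, and its share among windows as rich in CpG as that of Phf19 was not computed. None of the members' windows holds CACGTG, the E-box of MYC and MITF family factors, which 6.02% of all windows hold. All windows shown are rich in CpG, with 31 in Phf19 and 23 in each of Mtf2 and Phf1, against a median of 6 over all windows. The Lcor window holds 45, more than 99.6% of all windows do, while the 3 Aebp2 windows hold 1, 14 and 3. Windows were found for 6 of the 7 genes, and Epop had none in the table.

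Epop, the Elongin-binding PRC2.1 subunit (ENSMUSG00000043439, chromosome 11, 97627389 to 97629702, minus strand), fell with siEzh2 whichever control was used. It stood at 5.29, 4.23 and 5.002 CPM with siEzh2, against 7.77, 7.44 and 7.05 CPM with scr, a 1.54-fold lower level (−0.62 ± 0.13, adjusted p = 0.00168). Relative to DMSO, siEzh2 was 1.84-fold lower (−0.88 ± 0.13, adjusted p = 0.00016), and scr itself was at −0.26 ± 0.12 (adjusted p = 0.132). DZNep lowered it 1.38-fold, with 6.23, 5.79 and 7.33 CPM against 7.65, 8.88 and 10.03 CPM with DMSO (−0.46 ± 0.13, adjusted p = 0.00369). In both comparisons no treated library reached the lowest control. With GSK126 it stood at 5.52, 7.88 and 7.49 CPM, overlapping DMSO, and did not pass (−0.35 ± 0.13, adjusted p = 0.074). Epop is a single-transcript gene in the annotation and no annotated gene overlaps it. It was the noisiest of the 7, with a median coefficient of variation of 12.3% within groups, against 1.76% for Aebp2.

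Lcor encodes a ligand-dependent nuclear receptor corepressor as well as PALI1 (ENSMUSG00000025019, chromosome 19, 41482637 to 41562261, plus strand), and gene counts do not separate these products. It stood at 23.0, 20.4 and 23.3 CPM with DZNep and 21.9, 22.9 and 23.4 CPM with GSK126, against 24.4, 21.7 and 15.4 CPM with DMSO. DMSO replicate 3, the deepest library of the series, lay below all compound libraries, and DMSO replicate 1 lay above them. It stood at 18.8, 20.6 and 24.3 CPM with siEzh2, against 23.8, 22.9 and 23.7 CPM with scr, which overlap. No comparison called Lcor. The 95% intervals on the log2 scale were −0.15 to 0.40 with DZNep, −0.12 to 0.44 with GSK126 and −0.42 to 0.14 with siEzh2 relative to scr. Without DMSO replicate 3 the estimates turned to −0.055 with DZNep and −0.019 with GSK126.

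Of the PRC2.2 genes, Jarid2 fell with DZNep and rose in siEzh2 relative to scr, and Aebp2 varied least of the 7 subunits in relative terms, 1.12-fold between group means. Jarid2, a catalytically inactive relative of the KDM5 demethylases (ENSMUSG00000038518, chromosome 13, 44729474 to 44921643, plus strand), stood at 94.4, 88.2 and 84.4 CPM with DZNep, against 107, 110 and 102 CPM with DMSO. Every DZNep library lay below every DMSO library, a 1.19-fold fall (−0.26 ± 0.05, adjusted p = 0.000252). With GSK126 it stood at 107, 108 and 106 CPM, within the DMSO range, and the 95% interval of that difference was −0.10 to 0.12. In the siRNA arm it stood at 110, 110 and 114 CPM with siEzh2, against 93.1, 95.02 and 102 CPM with scr, a 1.15-fold rise without overlap (0.20 ± 0.05, adjusted p = 0.00584). Set against DMSO, siEzh2 was at 0.07 (95% interval −0.04 to 0.17, adjusted p = 0.427), and scr was at −0.14 ± 0.05 (adjusted p = 0.0559).

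Aebp2, a zinc finger protein (ENSMUSG00000030232, chromosome 6, 140622663 to 140678472, plus strand), was the only member called with GSK126. It stood at 221, 221 and 228 CPM with DZNep and 210, 210 and 212 CPM with GSK126, against 235, 232 and 230 CPM with DMSO. Both compounds lay below DMSO in every library. The GSK126 fall was 1.10-fold (−0.14 ± 0.04, adjusted p = 0.0425), and DZNep was at −0.06 ± 0.04 (adjusted p = 0.275). That call was lost without any 1 of the 6 libraries (adjusted p between 0.0585 and 0.117, and 0.106 without GSK126 replicate 1) and with RLE scaling (0.057), library totals alone (0.0718), the compared groups only (0.0924), the replicate block (0.0539) or no count filter (0.118). It held with DESeq2 alone (adjusted p = 0.0115). In the siRNA arm it stood at 200, 208 and 215 CPM with siEzh2, against 210, 221 and 210 CPM with scr, which overlap (−0.04, adjusted p = 0.551). Against DMSO, siEzh2 was at −0.16 ± 0.04 (adjusted p = 0.019) and scr at −0.12 ± 0.04 (adjusted p = 0.0509).

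In counts, DZNep changed 4 of the 7 genes, with 1 higher and 3 lower (57.1%), where 62.3% of the 15152 genes tested were called, 31.2% higher and 31% lower. GSK126 changed 1 of 7 (14.3%), where 12.7% of all genes were called, 7.15% higher and 5.54% lower. In turn, siEzh2 relative to scr changed 4 of 7 (57.1%), with 1 higher and 3 lower, where 26.1% were called, 13.2% higher and 12.9% lower. The scr group differed from DMSO in 2 of 7, Phf19 and Mtf2 (28.6%), both higher, where 25.9% were called, 12.2% higher and 13.6% lower. Libraries of scr and DMSO did not overlap for 3 of the 7, where 37.5% of all genes did not. With DMSO as its control, siEzh2 differed in 2 of 7, Epop and Aebp2, where 14.2% of all genes were called. Members' libraries did not overlap in 5 of 7 genes for DZNep, 2 for GSK126 and 5 for siEzh2 relative to scr, where 63%, 30.7% and 41.8% of all genes did not overlap. The median log2 change of the 7 genes was −0.06 with DZNep, −0.13 with GSK126 and −0.19 with siEzh2, beside medians over all genes of 0.00, −0.01 and −0.01. The compound contrasts share the DMSO libraries.

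The compounds were given at the same 2 µM, and DZNep against GSK126 called 3 of the 7 genes, where 64.6% of all genes were called, 32.9% higher and 31.7% lower. Their libraries did not overlap for 4 of the 7, where 70.5% of all genes did not. Relative to GSK126, DZNep gave a higher Phf1 (0.54 ± 0.09, adjusted p = 2.88e-05), a lower Phf19 (−0.31 ± 0.07, adjusted p = 0.000682) and a lower Jarid2 (−0.27 ± 0.05, adjusted p = 0.000155). Cuta, which overlaps Phf1, was also higher (0.33 ± 0.11, adjusted p = 0.0194). The other members did not pass, with 95% intervals of −0.39 to 0.16 for Epop, −0.07 to 0.18 for Mtf2, −0.01 to 0.18 for Aebp2 and −0.31 to 0.24 for Lcor.

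Effects were also set against each other, each relative to its own control. The siEzh2 effect was more negative than the GSK126 effect for Mtf2 (−0.43 ± 0.08, adjusted p = 0.00071) and Phf19 (−0.37 ± 0.09, adjusted p = 0.00885), 2 of 7 where 20.7% of all genes were called, 10.1% higher and 10.5% lower. With DMSO as the control of siEzh2, DMSO cancels out of these differences. They then compare siEzh2 directly with a compound group and include the difference between the arms. Relative to GSK126 in this way, Phf19 was at 0.27 (adjusted p = 0.00742), Mtf2 at −0.18 (adjusted p = 0.0317) and Epop at −0.53 (adjusted p = 0.00842). With scr as the control, the Epop difference was −0.27 (adjusted p = 0.333). The DZNep effect was above the siEzh2 effect for Phf1 (0.61 ± 0.13, adjusted p = 0.000557) and Mtf2 (0.49 ± 0.08, adjusted p = 5.98e-05) and below it for Jarid2 (−0.46 ± 0.07, adjusted p = 3.03e-05), 3 of 7 where 51.1% were called, 25.3% higher and 25.8% lower. For Phf19 and Epop that difference did not pass (95% intervals −0.15 to 0.25 and −0.23 to 0.55). In the direct comparison of DZNep with siEzh2 both passed, Phf19 at −0.59 (adjusted p = 4.45e-07) and Epop at 0.42 (adjusted p = 0.0119), and Mtf2 was at 0.24 (adjusted p = 0.00148). That comparison also includes the difference between the arms.

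**Figure D3:**
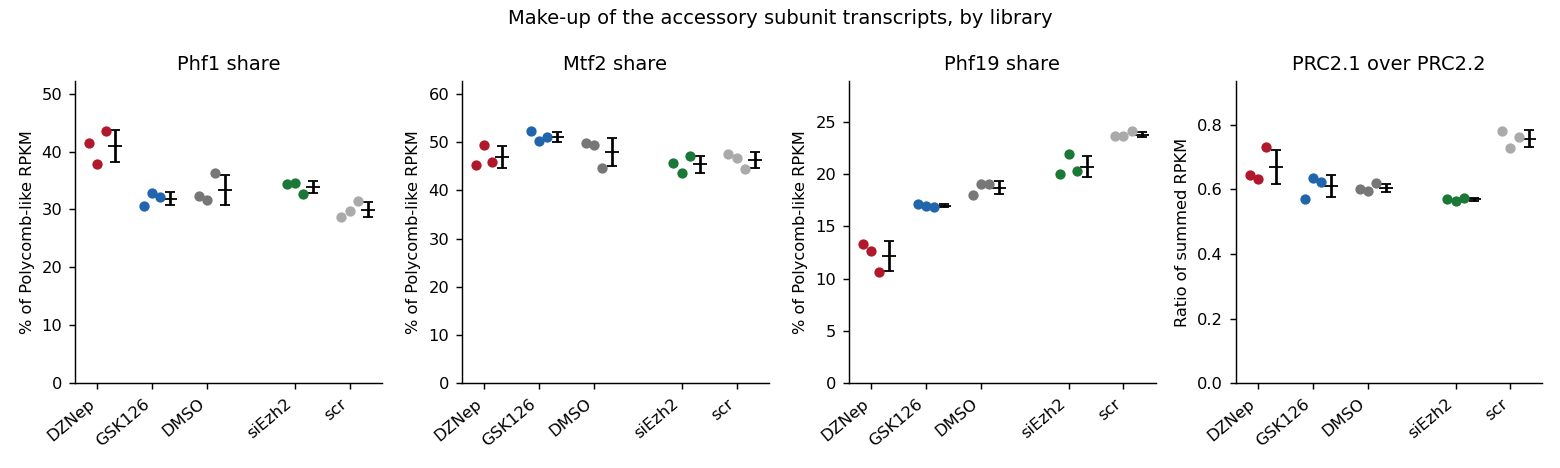
Share of summed Polycomb-like RPKM taken by each paralog, and the ratio of summed PRC2.1 to summed PRC2.2 RPKM, in each library (dots; mean and SD beside them). The Phf19 share is 12.2% with DZNep, against 18.7% with DMSO, and 20.7% with siEzh2, against 23.8% with scr.

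Set out as shares of the summed RPKM of the Polycomb-like genes, Phf19 took 12.2% ± 1.40 with DZNep and 16.98% ± 0.174 with GSK126, against 18.7% ± 0.595 with DMSO (SD, n = 3 each). It took 20.7% ± 1.03 with siEzh2, against 23.8% ± 0.261 with scr. Phf1 took 40.9% ± 2.82 with DZNep and 31.9% ± 1.15 with GSK126, against 33.4% ± 2.57 with DMSO, and 33.9% ± 1.06 with siEzh2, against 30.0% ± 1.35 with scr. Mtf2 took the largest share in every library, between 43.6% and 52.2%. The summed RPKM of the 5 PRC2.1 genes over that of the PRC2.2 genes was 0.670 ± 0.0533 with DZNep and 0.610 ± 0.0347 with GSK126, against 0.605 ± 0.0119 with DMSO. In the siRNA arm this ratio was 0.569 ± 0.00491 with siEzh2, against 0.756 ± 0.0256 with scr, which was the highest group mean. These are ratios of transcripts, with no test made on them, and they depend on the lengths used.

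Around the accessory subunits, the PRC2 core and partner list held 12 symbols, of which 11 were tested, and 4 rose and 5 fell with DZNep (81.8%, where 62.3% of all genes were called). Eed, the subunit that reads the methyl mark, rose (0.44 ± 0.05, adjusted p = 6.3e-07), as did the histone-binding Rbbp4 (0.15 ± 0.05, adjusted p = 0.016). Ezh2 fell (−0.41 ± 0.05, adjusted p = 3.67e-07), and so did Lcorl, the paralog of Lcor (−0.47 ± 0.07, adjusted p = 6.1e-06). With GSK126, 1 rose and 3 fell (36.4%, where 12.7% of all genes were called). Skida1 rose (0.39 ± 0.11, adjusted p = 0.0234), and Rbbp7 (−0.22 ± 0.05, adjusted p = 0.00709) and Elob, the Elongin B that EPOP binds (−0.22 ± 0.07, adjusted p = 0.0371), fell. With siEzh2 relative to scr, 4 were called (36.4%, where 26.1% of all genes were). Those that fell were Ezh2 itself (−2.47 ± 0.05, adjusted p = 1.22e-17), Rbbp4 (−0.20 ± 0.05, adjusted p = 0.00661) and Suz12, the scaffold that the accessory subunits bind (−0.14 ± 0.05, adjusted p = 0.0358, named after its value was seen), and Skida1 rose (0.36 ± 0.12, adjusted p = 0.0297). In scr relative to DMSO, Skida1 was lower (−0.53, adjusted p = 0.0017) and Suz12 higher (0.15, adjusted p = 0.0264). The list medians were −0.03, 0.01 and −0.07.

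The PRC1 list, which writes and removes the H2A ubiquitin mark that JARID2 and AEBP2 bind, held 20 genes, and its share of calls was near that of all genes with DZNep (60% against 62.3%) and siEzh2 (25% against 26.1%). With DZNep 8 rose and 4 fell, among them L3mbtl2 (1.00 ± 0.06, adjusted p = 5.69e-12) and E2f6 (0.34 ± 0.06, adjusted p = 4.31e-05) upward and Pcgf3 (−0.44 ± 0.05, adjusted p = 9.89e-08) and Pcgf1 (−0.72 ± 0.09, adjusted p = 5.88e-07) downward. With GSK126 5 rose and 2 fell (35%, where 12.7% of all genes were called). Bmi1 (0.44 ± 0.05, adjusted p = 3.92e-06) and Auts2 (1.04 ± 0.15, adjusted p = 0.00011) rose, and L3mbtl2 (−0.41 ± 0.06, adjusted p = 5.17e-05) and the ubiquitin ligase Ring1 (−0.32 ± 0.08, adjusted p = 0.00929) fell. In siEzh2 relative to scr 5 of the 20 were called, all higher, with the smallest p for Pcgf3 (0.60 ± 0.05, adjusted p = 9.07e-09) and L3mbtl2 (0.54 ± 0.06, adjusted p = 4.04e-07). Of these 5, Pcgf3 (−0.69, adjusted p = 2.05e-09), Bmi1 (−0.20, adjusted p = 0.00451) and Auts2 (−0.60, adjusted p = 0.0167) were lower in scr than in DMSO, where the list had 5 calls, all lower. L3mbtl2 was at −0.08 there (adjusted p = 0.288) and Bcorl1 at −0.19 (adjusted p = 0.0506).

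Of the 6 JmjC genes, relatives of Jarid2 and demethylases of the PRC2 mark, 5 were tested. Kdm5b rose with GSK126 (0.37 ± 0.05, adjusted p = 0.000115) and with siEzh2 relative to scr (0.46 ± 0.06, adjusted p = 2.79e-06), the 1 call in each (20%, where 12.7% and 26.1% of all genes were called), while DZNep gave 1 higher and 3 lower (80%, where 62.3% were). There Kdm5c rose (0.43 ± 0.05, adjusted p = 1.66e-07), and the demethylase Kdm6b (−0.95 ± 0.13, adjusted p = 1.48e-05) and Kdm5b (−0.30 ± 0.06, adjusted p = 7.92e-05) fell. For Kdm5b, scr stood below DMSO (−0.35, adjusted p = 6.96e-05). The proliferation list held 18 genes, many of them E2F targets, as Ezh2 is known to be. With DZNep, where Phf19 and Ezh2 fell, 12 of the 18 rose and 1 fell (72.2%, where 62.3% of all genes were called and 31.2% were higher), with a median of 0.35. The smallest p-values were those of the ribonucleotide reductase subunit Rrm2 (0.74 ± 0.05, adjusted p = 3.02e-10) and E2f8 (0.98 ± 0.08, adjusted p = 1.13e-09), while E2f3 fell (−0.14 ± 0.05, adjusted p = 0.0193). With siEzh2 relative to scr, where Phf19 also fell, 7 of the 18 fell (38.9%, where 26.1% of all genes were called), with the smallest p-values for the replication helicase subunits Mcm5 (−0.37 ± 0.05, adjusted p = 1.63e-05) and Mcm2 (−0.30 ± 0.05, adjusted p = 0.000108), although both stood above DMSO in scr (0.31 and 0.26, adjusted p = 0.00013 and 0.000498). With GSK126 1 of the 18 rose, E2f7 (0.21 ± 0.07, adjusted p = 0.0368, 5.56%, where 12.7% of all genes were called). Any link of the proliferation list to the changes of Phf19 or Ezh2 was not tested.

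**Figure D4:**
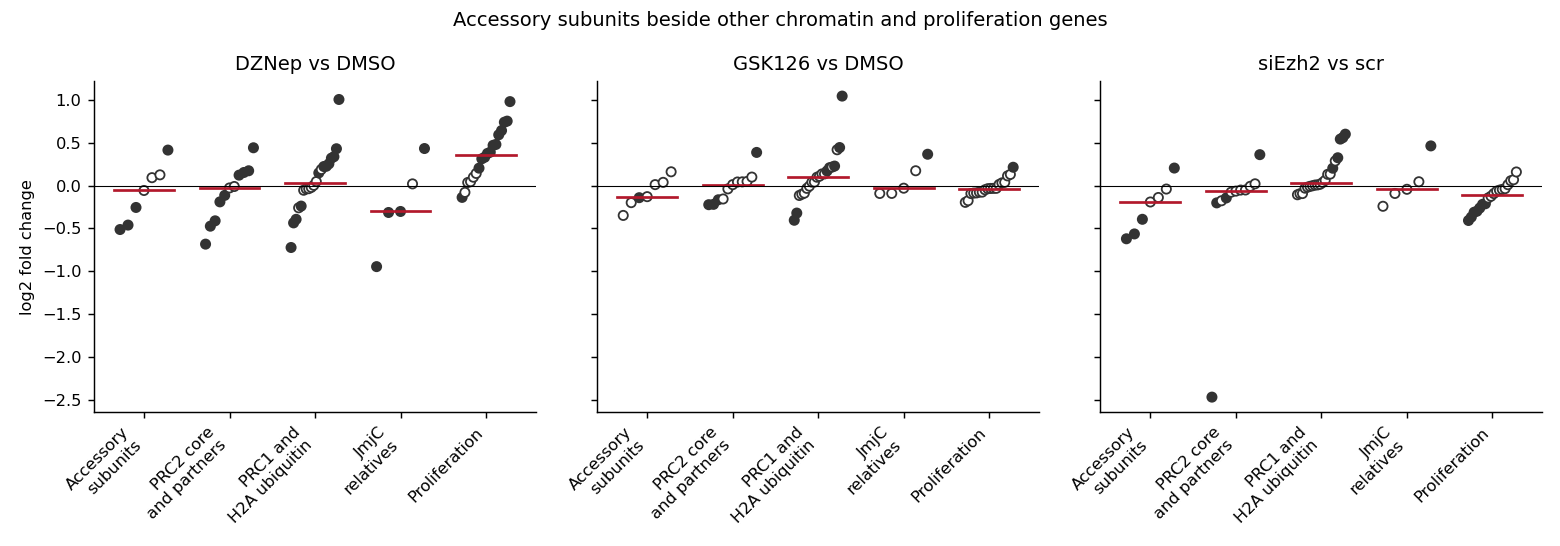
Log2 fold change of each tested gene of the accessory subunits and of the 4 other lists in the 3 main comparisons (dots, filled at adjusted p under 0.05; red line, median of the list). The proliferation list has a median of 0.35 with DZNep and −0.11 with siEzh2, while Ezh2 is the lowest point at −2.47 in siEzh2.

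The genes with the nearest profiles to the 3 most variable members were sought among 10603 genes, by the root mean square difference of centred log2 CPM over the 15 libraries. For Phf19 these were Rap1gap (0.0900) and Lonp1 (0.101), a mitochondrial protease. Lonp1 had 236 CPM with DZNep, 290 with GSK126, 321 with DMSO, 356 with siEzh2 and 458 with scr. For Epop they were Isoc2a (0.161) and Csdc2 (0.180), and for Phf1 Dmwd (0.0788) and the polyadenylation factor Pabpn1 (0.0794). Pabpn1 had 36.7 CPM with DZNep, 27.7 with GSK126, 30.8 with DMSO, 28.8 with siEzh2 and 33.2 with scr. These profiles share libraries and scaling, and nearness is a description only.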

How the data were processed

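The deposited values are raw whole-number counts of reads per gene. The submitters' processing notes name STAR, featureCounts and GRCm38. The sources used here do not give versions, annotation or strand setting, so reads of overlapping genes could be lost or shared. Columns were matched to libraries by name. GENCODE M21 gave symbols for 45229 of 46078 identifiers.

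One model of all 15 libraries, with a coefficient for each group, was fitted in edgeR 4.0.16 (R 4.3.3) with TMM factors. The robust quasi-likelihood test ran on the 15152 genes left by the low-count filter. Benjamini-Hochberg adjustment covered all of them, and genes under 0.05 were called. Log2 changes carry standard errors and 95% intervals. CPM uses TMM-scaled totals. The code was tested on simulated data. Dispersion was 0.00409 (coefficient of variation 6.4%), and no replicate pair was within sampling noise (chi-square per degree of freedom, 5.62 to 36.2).

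The members and lists were chosen with earlier results of these data known. Named genes were the members, Ezh2, the 2 called genes with the smallest p in each direction per list and main comparison, and the 2 nearest profiles (mean of at least 2 CPM) of the 3 most variable members. Cuta and Tmed5 are named for their overlap. Alternatives were DESeq2 1.42.0, RLE scaling, library totals, no count filter, compared groups only, a replicate block, leaving out each library and, added after seeing the data, DMSO as the control of siEzh2.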

Additional observations from a re-analysis of the deposited data

Results flagged for a closer look

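Tests of the difference between the effects of 2 treatments, each relative to its own control, called 5 results among the members, all from edgeR. For the siEzh2 effect minus the GSK126 effect these were 2 of 7 members, where 20.7% of all genes were called. For the DZNep effect minus the siEzh2 effect they were 3 of 7, where 51.1% of all genes were called. The siEzh2 effect lay below the GSK126 effect by −0.37 for Phf19 (adjusted p = 0.00885) and by −0.43 for Mtf2 (adjusted p = 0.00071) on the log2 scale. The DZNep effect differed from the siEzh2 effect by −0.46 for Jarid2 (adjusted p = 3.03e-05), 0.61 for Phf1 (adjusted p = 0.000557) and 0.49 for Mtf2 (adjusted p = 5.98e-05). Phf19 and Mtf2 are also the members in which scr differed from DMSO, by 0.64 and 0.25. With DMSO as the control of siEzh2, DMSO cancels, and siEzh2 is compared directly with a compound group, across the arms. Phf19 was then at 0.27 in siEzh2 relative to GSK126 (adjusted p = 0.00742). Mtf2 was at −0.18 in siEzh2 relative to GSK126 (adjusted p = 0.0317) and at 0.24 in DZNep relative to siEzh2 (adjusted p = 0.00148).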

How the results depend on the processing

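The count of accessory subunits called with GSK126 was 1 as reported, and 0 with RLE scaling, library totals alone, the compared groups only or the replicate block. Over all genes 12.7% were called as reported, and 12.6%, 11.4%, 7.8% and 12.8% in those settings, in that order. Without 1 library the count of members lay between 0 and 1, the call without DMSO replicate 1 being Epop (adjusted p = 0.0241), as with no count filter (adjusted p = 0.00753). Over all genes these 2 settings called 16.2% and 9.43%. For scr relative to DMSO the count was 2, against 4 by DESeq2 and between 2 and 4 without 1 library, with 4 without DMSO replicate 1. The shares of all genes called were 25.9%, 25.3% by DESeq2 and between 19.8% and 25.1% without 1 library. With DMSO as the control of siEzh2, the counts were 2 in place of 4 for siEzh2, and 6 in place of 3 for the DZNep effect minus the siEzh2 effect. The latter is then DZNep compared directly with siEzh2, across the arms. The shares of all genes called moved the same way, to 14.2% in place of 26.1% and to 63.5% in place of 51.1%. Without 1 library the counts were 4 for DZNep, 4 for siEzh2 relative to scr and 3 for DZNep relative to GSK126 each time, and lay between 2 and 3 and between 3 and 4 for the differences of effects. The shares of all genes called then lay between 56.9% and 61.5%, 20.4% and 21.7%, and 59.5% and 61.4%. For the differences of effects they lay between 16.7% and 21.5% and between 46.9% and 52.6%. The 8 calls of members with DZNep and with siEzh2 relative to scr held under each alternative except DMSO as the control of siEzh2.

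Some log2 values changed sign. With DMSO as the control of siEzh2 they were 0.074 for Phf19 and 0.064 for Lcor in siEzh2. The differences of effects with that control are direct comparisons across the arms. Those that changed sign were 0.27 for Phf19, 0.068 for Phf1 and −0.021 for Aebp2 in the siEzh2 effect minus the GSK126 effect. In the DZNep effect minus the siEzh2 effect they were −0.59 for Phf19 (adjusted p = 4.45e-07) and 0.11 for Aebp2 (adjusted p = 0.0469). Library totals alone gave 0.0062 for that Aebp2 value. Without 1 library, GSK126 ranged from −0.021 to 0.037 for Jarid2, −0.019 to 0.31 for Lcor and −0.0051 to 0.069 for Mtf2, each lowest without DMSO replicate 3. DZNep ranged from −0.055 to 0.27 for Lcor. DZNep relative to GSK126 ranged from −0.080 to 0.018 for Lcor and −0.0037 to 0.10 for Mtf2. The siEzh2 effect minus the GSK126 effect ranged from −0.14 to 8.76e-06 for Phf1. No value that changed sign without 1 library was called. The cause was not tested.

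Over all genes, GSK126 gave 1923 calls, against 1131 with the compared groups only, 1229, 1183 and 1203 without GSK126 replicate 1, 2 or 3, and 1237 without DMSO replicate 3. The count rose to 2490 without DMSO replicate 1, and to 2395 of 25395 genes tested with no count filter. For siEzh2 the count was 3953, against 2148 with DMSO as control. With library totals alone the share of higher calls was 58.5%, against 47.3%, for scr, and 39.2%, against 49%, for the siEzh2 effect minus the GSK126 effect. Same-numbered libraries of different groups did not deviate together (correlations between −0.236 and 0.312), so the numbers only name libraries, and the replicate block changed no other count of members by over 1.5 times. Epop, with at most 651 counts a library, had the highest median coefficient of variation within groups. The standard error of Lcor was the larger with DZNep (0.129, against 0.127 for Epop) and GSK126 (0.129, against 0.125). With siEzh2 relative to scr that of Epop was the larger (0.134, against 0.129).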
